A study of Homo sapiens with 5 samples.

Results

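The 10 genes described here encode cytokines and chemokines that are commonly assigned to the secretory program of senescent cells: IL6, IL11, LIF, IL1A, IL1B, CXCL1, CXCL2, CXCL3, CXCL8 and CCL2. They were taken by gene symbol from the 26485 genes of the count table, in which each of the 10 has a row. The libraries came from wild-type RPE1 cells, a human line established from the retinal pigment epithelium, after 18 h of treatment. Of the 5 libraries, 2 were from cells that received DMSO, the solvent of the drug, 2 from cells with 0.2 μM doxorubicin and 1 from cells with 0.34 μM doxorubicin. These are the concentrations of the sample labels and of the results and figure legends of the study, while the description of the treatment gives larger ones. All libraries thus share the line and the time, and there is no untreated library without DMSO and no later time. Doxorubicin is an anthracycline that intercalates into DNA and poisons type II topoisomerases, so that double-strand breaks form.

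Cells that have left the cell cycle after DNA damage can begin to release inflammatory factors. In this program IL-1α acts early, through its receptor and the transcription factor NF-κB, and NF-κB together with C/EBPβ drives the genes of IL-6 and IL-8. IL-6, IL-11 and LIF signal through receptors that share the gp130 chain (IL6ST) and activate STAT3. CXCL1, CXCL2, CXCL3 and CXCL8 (IL-8) attract neutrophils through CXCR1 and CXCR2, and CCL2 attracts monocytes through CCR2. The program is known to build up over days, later than the arrest of the cell cycle.

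The start regions of 8 of the 10 genes were found in the RefSeq promoter table (GRCh38.p14), and those of LIF and CCL2 were not matched. The 250 bases before each start were searched on both strands. The letters GGANTTTCC, the core of many sites bound by NF-κB, occurred in 5 of the 9 start regions of these 8 genes and in 1.45% of 35116 promoters of the same length. They were chosen after the sequences were seen. The longer NF-κB consensus occurred in 4 of the 9 and in 9.96% of all, and its matches overlap those of GGANTTTCC. The matching stretches of IL6, CXCL8, CXCL1, CXCL2 and CXCL3 are shown because these genes hold the same letters and yet had very different mRNA levels, with GGANTTTCC in capitals:
IL6, chr7:22727103-22727161, plus strand: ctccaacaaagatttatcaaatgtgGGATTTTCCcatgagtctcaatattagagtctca
CXCL8, chr4:73740453-73740511, plus strand: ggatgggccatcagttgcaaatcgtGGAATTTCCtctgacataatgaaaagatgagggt
CXCL1, chr4:73869290-73869348, plus strand: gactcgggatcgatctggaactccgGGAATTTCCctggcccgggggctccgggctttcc
CXCL2, chr4:74099239-74099297, minus strand: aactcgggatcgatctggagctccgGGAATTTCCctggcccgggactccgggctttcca
CXCL3, chr4:74038734-74038792, minus strand: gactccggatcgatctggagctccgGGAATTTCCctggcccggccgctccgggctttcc

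Compared position by position without gaps, the stretches of CXCL1 and CXCL3 had the same base at 55 of 59 positions. Those of CXCL1 and CXCL2 had it at 48, and those of CXCL8 and IL6 at 20. A base missing from a stretch, as in CXCL2 after the match, shifts the bases that follow and lowers the number. The first base of the match lay 72 bases before the start of IL6, 91 before that of CXCL8, and 78, 77 and 78 before those of CXCL1, CXCL2 and CXCL3. In the start regions of IL1A, IL1B and IL11 these letters did not occur. The letters TTGCNNAA, which resemble the site of C/EBP factors, occurred in 9.05% of all promoters and in those of IL6, IL1B and CXCL2. The letters TGANTCA, the site of AP-1, occurred in 6.57% of all promoters and in those of IL11, CXCL8 and IL1A. For the cytokines with the clearest levels the matches are shown in capitals:
IL6, chr7:22727020-22727077, plus strand: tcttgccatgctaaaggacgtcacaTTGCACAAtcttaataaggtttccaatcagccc
IL1B, chr2:112836962-112837019, minus strand: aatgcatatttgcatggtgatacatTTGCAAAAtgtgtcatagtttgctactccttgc
IL11, chr19:55370528-55370584, minus strand: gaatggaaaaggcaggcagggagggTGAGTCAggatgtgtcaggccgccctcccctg
A match of letters describes the sequence and does not show that a factor was bound in these cells.

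The counts on genes summed to between 23773061 and 36725345 per library, with the 0.34 μM library the deepest. Values are given as CPM, counts scaled to library size after TMM normalization (edgeR), and SE is the standard error of a log2 fold change, which is doxorubicin over DMSO, with the 3 doxorubicin libraries as 1 group, the grouping of the study. Of the retinal pigment epithelium markers, MITF, OTX2, KRT8 and KRT18 were measured at 601 counts or more in every library. In contrast, RPE65 had at most 8, TYRP1 at most 7, TYR at most 5, RLBP1 at most 3 and DCT at most 2. SERPINF1 had 11 and 29 counts in DMSO, 4 and 15 at 0.2 μM and 13 at 0.34 μM (log2 fold change -1.04, edgeR adjusted p = 0.355). BEST1 had 26 and 14 counts in DMSO, 86 and 30 at 0.2 μM and 142 at 0.34 μM, and PMEL had 7 and 5, 22 and 32, and 46 counts (edgeR adjusted p = 0.0823 and 0.0264, DESeq2 adjusted p = 0.0161 and 0.00868). The summed level of the 12 epithelial markers was 638 to 784 CPM in DMSO and 1051 to 1249 in doxorubicin, most of it KRT8 (means 357 and 653 CPM) and KRT18 (means 282 and 436.5 CPM). The log2 fold change was 0.050 for MITF and -0.021 for OTX2. The summed level of 5 endothelial markers was 2.365 to 6.38 CPM in DMSO and 3.325 to 8.90 in doxorubicin. Of 12 immune cell markers, CD3E, MS4A1 and TYROBP had no count and CD14 at most 2. Their summed level was between 95.8 and 103 CPM in DMSO and between 81.2 and 114 in doxorubicin, and most of it was CD68. The leukocyte gene PTPRC had 5 and 7 counts with DMSO against 25, 53 and 72 with doxorubicin (log2 fold change 2.87, SE 0.56, edgeR adjusted p = 0.0212). The part of such transcripts in the results was not tested.

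The level of the 10 genes differed widely. To compare genes, CPM was divided by the length of the canonical transcript in kilobases. In DMSO, CCL2 had 70.5 CPM per kilobase and LIF 36.6, ahead of IL1B with 5.05, IL11 with 4.001 and IL6 with 2.87. In doxorubicin the order was LIF (64.4), CCL2 (40.4), IL1B (11.1), IL6 (7.62) and IL11 (3.21). Over all 5 libraries CCL2 ranged from 14.6 to 120.1 CPM per kilobase, LIF from 26.7 to 71.5, IL1B from 4.05 to 15.1, IL6 from 1.63 to 8.22 and IL11 from 2.83 to 4.40. Within a treatment, neighbours in these orders overlapped, except that LIF lay above IL1B in both DMSO libraries and IL6 above IL11 in all doxorubicin libraries. CXCL8 reached at most 0.269 CPM per kilobase and IL1A at most 0.219, and CXCL1, CXCL2 and CXCL3 stayed between 0 and 0.109. LIF was the most abundant mRNA of the group by CPM. It made up between 48.2% and 88.3% of the summed CPM of the 10 genes in a library, and LIF and CCL2 together left between 8.27% and 13.3% for the other 8.

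**Figure D1:**
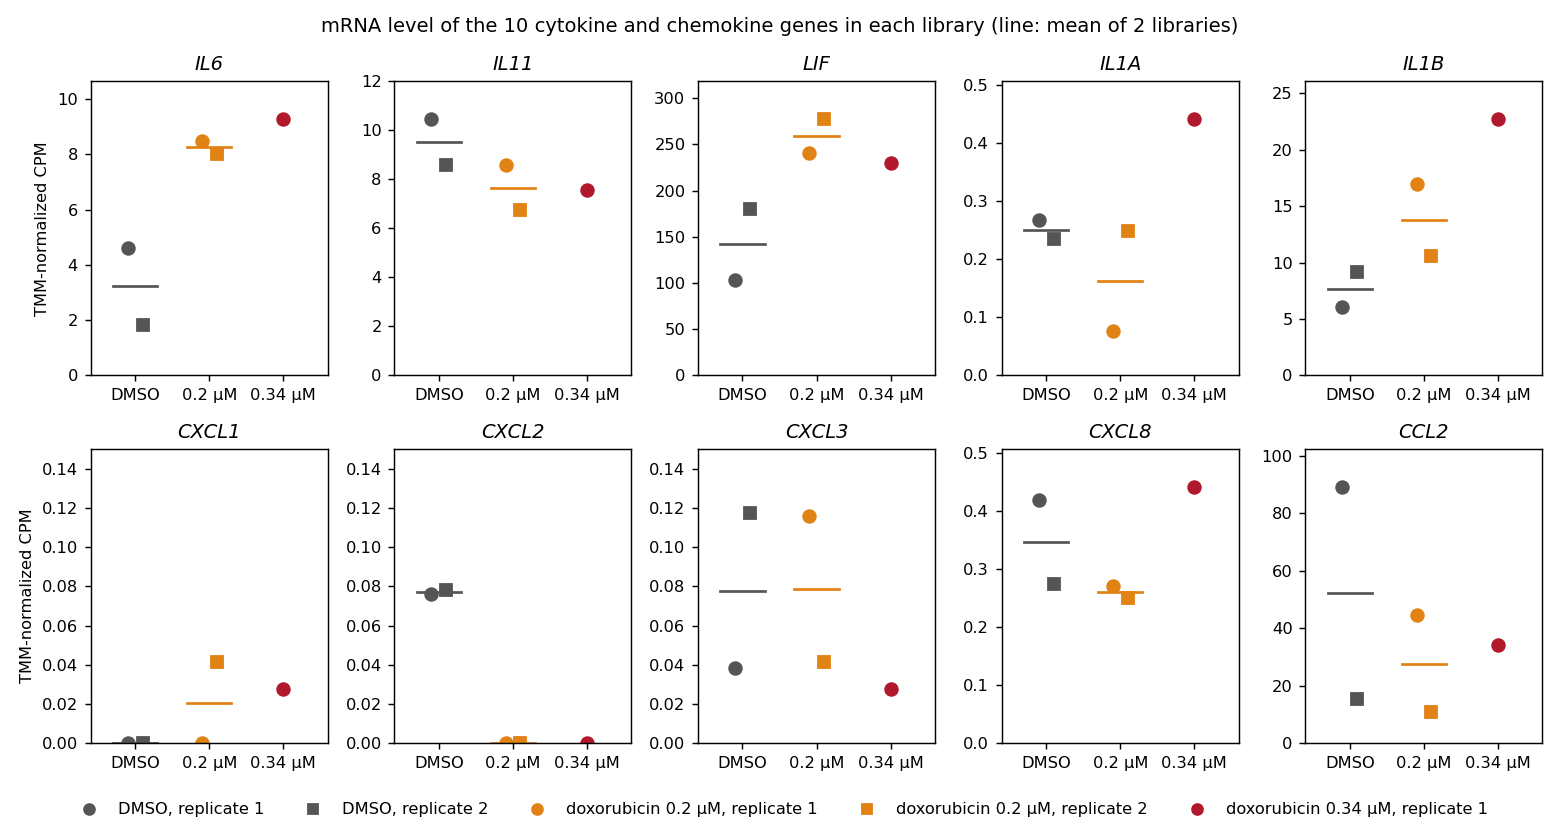
TMM-normalized CPM (vertical axis, from 0, with its own scale for each gene) of the 10 genes in DMSO, 0.2 μM and 0.34 μM doxorubicin, with 1 point for each library and a line at the mean of 2 libraries. The doxorubicin libraries lie above both DMSO libraries for IL6, LIF and IL1B, whereas CCL2 is low in replicate 2 of both treatments and CXCL1, CXCL2 and CXCL3 rest on 0 to 3 counts.

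The first comparison addressed whether the mRNAs of these factors differed after 18 h of doxorubicin. IL6, LIF and IL1B had higher levels after doxorubicin in every library, by 2.66-fold, 1.76-fold and 2.20-fold in the group means. IL11, CXCL8 and CCL2 did not separate the groups, and CXCL1, CXCL2, CXCL3 and IL1A were too low to be tested. Of the 6 genes that passed the filter on low counts, 0 passed the threshold of the study, a Benjamini-Hochberg adjusted p of 0.01, by the quasi-likelihood test of edgeR. Over all 14187 genes tested, 1.29% were called higher, 2.73% lower and 4.02% in either direction. At an unadjusted p under 0.05 there were 3 of the 6, all of them higher, where 15.2% of all genes were higher and 30.8% were past that level in either direction. The study itself used DESeq2 for differential expression, with this threshold and this grouping. With DESeq2 1 of the 6, IL6, passed as higher, against 6.37% of the genes that DESeq2 tested. With limma voom 0 of the 6 passed. The doxorubicin libraries lay entirely above the DMSO libraries for 3 of the 6 tested genes and for 24.3% of all genes tested, and entirely below for 0 of the 6 and for 23.4%. The median log2 fold change was 0.36 over the 6 tested genes and 0.013 over all genes tested. That of the cytokine genes was not stable, since it was -0.023 over the 7 genes tested without DMSO replicate 2 and 0.86 over the 5 tested without the 0.34 μM library. The cells of a library were measured together, so that a different number of cells with an mRNA and a different amount of it per cell cannot be told apart. The labels do not say whether the libraries are from separate cultures, while the study describes them as biological replicates.

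IL6 encodes interleukin 6, the cytokine of the acute phase response and a standard marker of the senescent secretome. Its gene lies on chromosome 7 (GRCh38, 22727200 to 22731998). It had 121 and 47 counts in DMSO, 219 and 193 at 0.2 μM and 336 at 0.34 μM. After normalization these were 4.62 and 1.84 CPM in DMSO, 8.47 and 8.02 at 0.2 μM and 9.26 at 0.34 μM. The 3 doxorubicin libraries were close to each other and above both DMSO libraries, which differed from each other by 2.51-fold. The means were 3.23 ± 1.96 CPM (SD, n = 2) and 8.58 ± 0.625 CPM (SD, n = 3). The log2 fold change was 1.41 (SE 0.40, edgeR adjusted p = 0.0633), and IL6 did not pass the threshold. DESeq2 gave nearly the same change (1.40) with an adjusted p of 0.00435, which did pass. The estimate depended on the DMSO libraries, since leaving out DMSO replicate 1 gave 2.21 and leaving out DMSO replicate 2 gave 0.88. The antisense gene IL6-AS1 overlaps IL6, and its own row had 8 and 14 counts with DMSO against 26, 33 and 39 with doxorubicin. Since no source used here gives the strand setting of the counting, reads of the overlapping stretch cannot be told apart.

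LIF encodes leukemia inhibitory factor, which keeps mouse embryonic stem cells undifferentiated and acts through LIFR and gp130 in many tissues. It lies on chromosome 22 (30240453 to 30246759) and overlaps the antisense genes LIF-AS1 and LIF-AS2. Its counts were 2707 and 4601 in DMSO, 6233 and 6659 at 0.2 μM and 8330 at 0.34 μM. The corresponding levels were 103 and 180.2 CPM in DMSO, 241 and 277 CPM at 0.2 μM and 229.5 CPM at 0.34 μM. All doxorubicin libraries were above both DMSO libraries, and the lowest of them was 1.27-fold above the highest DMSO library. The means were 142 ± 54.4 CPM (SD, n = 2) and 249 ± 24.7 CPM (SD, n = 3). The log2 fold change was 0.81 (SE 0.25, edgeR adjusted p = 0.0808), short of the threshold, and DESeq2 gave an adjusted p of 0.0224. Leaving out DMSO replicate 1, where LIF was lowest, gave 0.46, and leaving out replicate 2 gave 1.25.

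IL11 encodes the third gp130 cytokine of the group, known from fibrosis and bone. It lies on chromosome 19 (55364382 to 55370463). It was measured at 10.45 and 8.58 CPM in DMSO, 8.58 and 6.735 CPM at 0.2 μM and 7.55 CPM at 0.34 μM. The groups met, since replicate 1 of 0.2 μM was at the level of DMSO replicate 2. The means were 9.515 ± 1.325 CPM (SD, n = 2) and 7.62 ± 0.927 CPM (SD, n = 3). The log2 fold change was -0.32 (SE 0.22, edgeR adjusted p = 0.381), and leaving out 1 library at a time gave between -0.47 and -0.18. Of the 3 cytokines of the group that use gp130, IL6 and LIF were higher after doxorubicin in every library and IL11 was not. The doxorubicin libraries lay entirely above the DMSO libraries for 24.3% of all genes tested, and none of the 3 passed the threshold with edgeR.

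The IL-1 genes lie close together on chromosome 2 and encode the related ligands IL-1α and IL-1β, of which IL-1β is made as a precursor that caspase 1 cuts. IL1B (112829751 to 112836779) had 160 and 233 counts in DMSO, 439 and 255 at 0.2 μM and 823 at 0.34 μM. Its levels were 6.10 and 9.13 CPM in DMSO, 17.0 and 10.6 CPM at 0.2 μM and 22.7 CPM at 0.34 μM. The highest value was that of the 0.34 μM library, and replicate 2 of 0.2 μM was only 1.16-fold above the higher DMSO library. The means were 7.615 ± 2.14 CPM (SD, n = 2) and 16.8 ± 6.04 CPM (SD, n = 3). The log2 fold change was 1.14 (SE 0.36, edgeR adjusted p = 0.0855), and DESeq2 gave an adjusted p of 0.0172, so neither passed the threshold. Leaving out 1 library at a time gave between 0.86 and 1.45.

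IL1A (112773925 to 112784493) was barely detected, at 7 and 6 counts in DMSO, 2 and 6 at 0.2 μM and 16 at 0.34 μM, and did not pass the filter on low counts. The ratio of the summed counts was 1.11 after normalization (95% exact counting interval 0.542 to 2.37). This interval covers counting error only. A change of IL1A of the size seen in IL1B was thus within what the depth allows, and no difference was detectable.

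The CXC chemokine genes lie in a cluster on chromosome 4 and were nearly silent. CXCL8 (73740569 to 73743716) had 11 and 7 counts in DMSO, 7 and 6 at 0.2 μM and 16 at 0.34 μM, or between 0.2495 and 0.441 CPM. Its log2 fold change was -0.0895 (SE 0.54, edgeR adjusted p = 0.930), and its sign turned when 1 of DMSO replicate 1, 0.2 μM replicate 1 or 0.2 μM replicate 2 was left out. CXCL1 (73869393 to 73871308) had no count in DMSO, 0 and 1 at 0.2 μM and 1 at 0.34 μM. CXCL3 (74036589 to 74038689) had 1 and 3 counts in DMSO, 3 and 1 at 0.2 μM and 1 at 0.34 μM. CXCL2 (74097040 to 74099195) had 2 counts in each DMSO library and none in the doxorubicin libraries. All values of these 3 genes were at or under 3 counts, which corresponds to between 0.0827 and 0.125 CPM, so no fold is given for them. The mRNAs of CXCL1, CXCL2 and CXCL3 are similar in sequence, and reads that map to several of them could be lost or split in the counting. IL6, which holds the same GGANTTTCC letters near its start as these chemokines, was measured at between 47 and 336 counts.

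CCL2 encodes monocyte chemoattractant protein 1 and lies on chromosome 17 (34255285 to 34257203). Of the 6 tested genes it differed most between replicates. It had 2332 and 395 counts in DMSO, 1152 and 260 at 0.2 μM and 1246 at 0.34 μM, or 89.0 and 15.5 CPM, 44.55 and 10.8 CPM, and 34.3 CPM. The higher and the lower DMSO library differed by 5.75-fold and the 0.2 μM libraries by 4.12-fold, with replicate 2 the lower in both, and 2.56% of the genes tested differed at least as much between the libraries of either condition. For comparison, the median gene differed by 1.295-fold in DMSO and by 1.23-fold at 0.2 μM. The means were 52.2 ± 52.0 CPM (SD, n = 2) in DMSO and 29.9 ± 17.3 CPM (SD, n = 3) in doxorubicin, with overlapping libraries. The log2 fold change of CCL2 was -0.80 (SE 0.77, edgeR adjusted p = 0.531). Leaving out DMSO replicate 2 gave -1.58 and leaving out DMSO replicate 1 gave 0.95, so that the sign turned without 1 of the libraries. Among libraries of the same replicate number, 0.2 μM was below DMSO, at 44.55 against 89.0 CPM and at 10.8 against 15.5 CPM. A fit with a block on that number gave -0.76, but no label says that the number marks a shared batch. Other genes, chosen after their values were seen, were also low in replicate 2 of both treatments. The immediate early gene FOS had 3087 and 30 counts in DMSO, 3285 and 7 at 0.2 μM and 1825 at 0.34 μM, and the chemokine scavenger ACKR3 had 724 and 69, 585 and 100, and 756 counts. The part of this difference between replicates in the level of CCL2 was not tested.

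**Figure D2:**
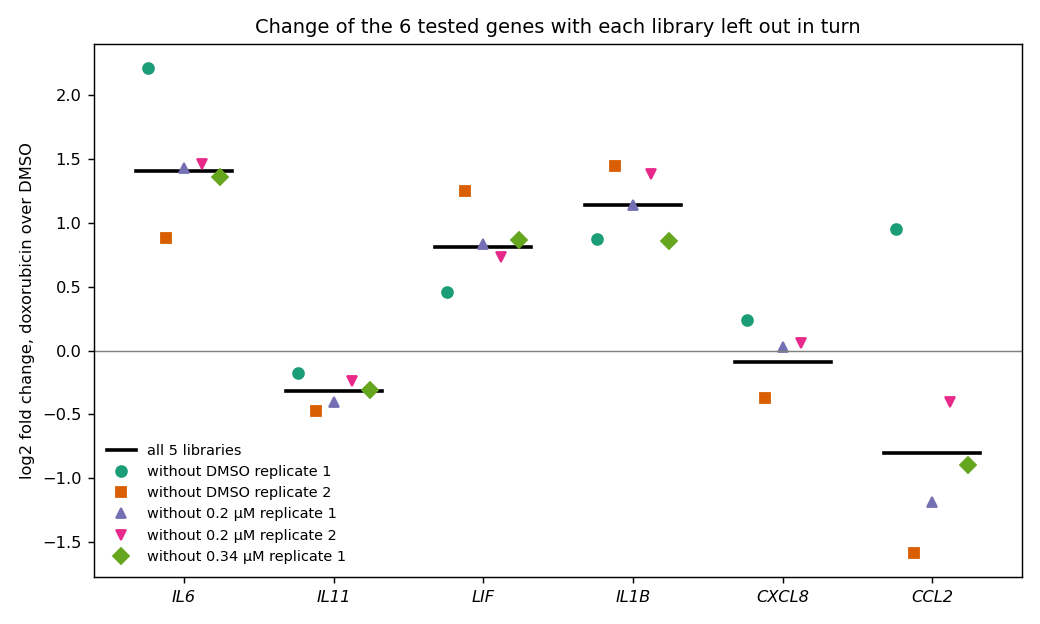
log2 fold change of doxorubicin over DMSO (vertical axis) for the 6 tested genes, with a black line for all 5 libraries and a symbol for each fit without 1 library. IL6, LIF and IL1B stay above 0 in each fit and IL11 below 0, whereas CCL2 lies at 0.95 without DMSO replicate 1 and at -1.58 without DMSO replicate 2, and CXCL8, which was not tested without the 0.34 μM library, lies on both sides of 0.

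The doses were compared next with all libraries in 1 fit of 3 conditions, in which the spread of the single 0.34 μM library is taken from the other libraries. None of the 7 genes tested there differed between 0.34 μM and 0.2 μM at an adjusted p of 0.01 or an unadjusted p of 0.05 with edgeR, and 0% of all 14745 genes tested did at the adjusted threshold. DESeq2 and limma voom also called 0 genes, and at an unadjusted p under 0.05 there were 27 genes with edgeR, 33 with DESeq2 and 24 with limma voom. The log2 difference of 0.34 μM from 0.2 μM was 0.17 for IL6 (SE 0.56), -0.17 for LIF (SE 0.37) and -0.020 for IL11 (SE 0.39). For IL1B it was 0.72 (SE 0.42, unadjusted p = 0.130 from edgeR's model over all genes). IL1A, with 2 and 6 counts against 16, had the largest difference of the 7, of 1.42 with a standard error of 1.00. These errors allow differences of more than 2-fold for some of the genes, so the comparison does not show that the doses acted alike. Against the same DMSO libraries, IL6 had log2 fold changes of 1.35 at 0.2 μM and 1.515 at 0.34 μM, LIF 0.86 and 0.69, and IL1B 0.85 and 1.57.

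**Figure D3:**
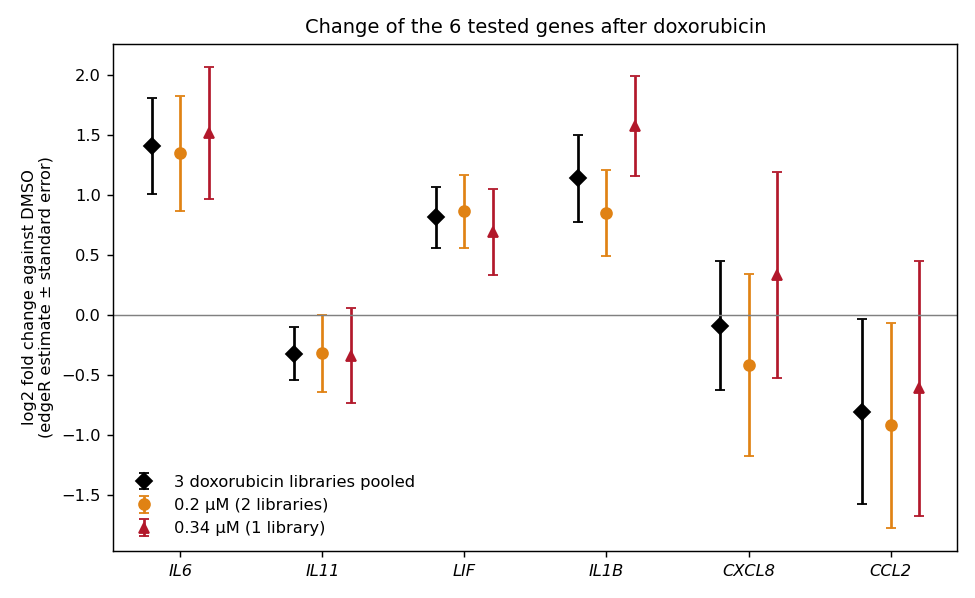
log2 fold change against DMSO (vertical axis, edgeR estimate ± approximate standard error, the SE of the text) of the 6 tested genes for the pooled doxorubicin libraries, for 0.2 μM and for 0.34 μM. For IL6, LIF and IL11 the estimates at both doses differ by less than their standard errors, and for IL1B they are 0.85 and 1.57.

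The receptors decide which of these factors the cells themselves could sense. Of 13 receptor genes, 8 were tested and 0 passed the threshold with edgeR, 4 being higher and 4 lower, and the median of their log2 fold changes was 0.014. By edgeR at an unadjusted p under 0.05 there was 1, and by DESeq2 1 was called higher, both being IL1RAP, the accessory chain of the IL-1 receptor (log2 fold change 0.90, adjusted p = 0.0494 by edgeR and 0.00483 by DESeq2). Over all genes tested, 30.8% were past that unadjusted level with edgeR and 6.37% were called higher by DESeq2. The common chain IL6ST was abundant, with 39.7 CPM per kilobase in DMSO and 8639 and 9938 counts there. LIFR had between 492 and 716 counts in every library and IL11RA between 21 and 125. The ligand-binding chain IL6R was low, at 17 to 56 counts. CXCR1, CXCR2 and CCR2, the receptors of the chemokines, had at most 5 counts in any library. IL11RA had the highest log2 fold change (1.09, edgeR adjusted p = 0.170) and IL1R1, the signalling receptor of IL-1, the lowest (-1.54, SE 0.97, edgeR adjusted p = 0.335). IL1R1 ranged from 11 to 359 counts and was low in the libraries in which CCL2 was low.

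**Figure D4:**
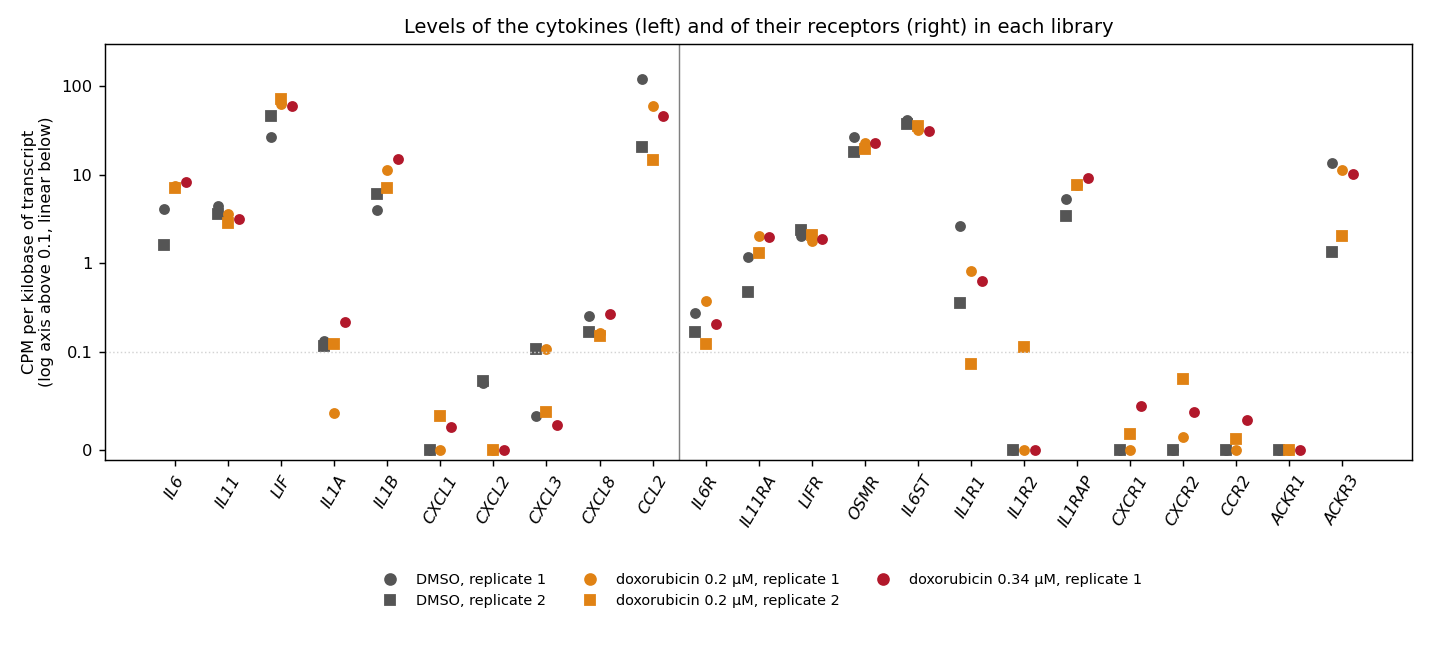
CPM per kilobase of transcript (vertical axis, log scale above 0.1 and linear below) of the 10 cytokine genes and 13 receptor genes in each of the 5 libraries. LIF, CCL2, IL6ST and OSMR lie above 10 in every library, whereas the CXC chemokines and CXCR1, CXCR2 and CCR2 lie below 1.

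Among 15 genes for the antagonists, the processing and the signal of IL-1, 12 were tested and 0 passed the threshold with edgeR. At an unadjusted p under 0.05 by edgeR there were 7, where 30.8% of all genes tested were, and the median log2 fold change was 0.022. DESeq2 called 1 higher and 1 lower, where 6.37% of the genes it tested were called higher and 7.72% lower. The lower gene was IL1RN, the antagonist that blocks the IL-1 receptor. It had 56 and 126 counts with DMSO against 18, 11 and 15 with doxorubicin, a log2 fold change of -2.76 (SE 0.48, adjusted p = 0.0143 by edgeR and 2.72e-05 by DESeq2). The higher gene was CASP1, the protease that cuts the IL-1β precursor, with 209 and 218 counts with DMSO against 415, 661 and 787 with doxorubicin (log2 fold change 1.40, adjusted p = 0.0190 by edgeR and 3.35e-05 by DESeq2). The inflammasome sensor NLRP3 had 4 and 60 counts with DMSO against 8, 26 and 5 with doxorubicin, and its adapter PYCARD at most 3.

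Of 13 genes of signalling from gp130, 12 were tested and 0 passed the threshold with edgeR, with 4 at an unadjusted p under 0.05 and 1 called higher by DESeq2, and the median log2 fold change was 0.12. Over all genes tested, 30.8% were past that unadjusted level and 4.02% passed the threshold with edgeR, while DESeq2 called 6.37% higher and 7.72% lower. The extremes were SOCS1 (log2 fold change 1.14) and JAK2 (-0.71). SOCS3, the feedback inhibitor that STAT3 induces, had 480 and 677 counts with DMSO against 428, 476 and 545 with doxorubicin. Of 16 transcription factors of the cytokine genes, 14 were tested, with a median of -0.0093. FOSL1, an AP-1 subunit, fell from 488 ± 30.2 CPM (SD, n = 2) to 144 ± 19.6 CPM (SD, n = 3), a log2 fold change of -1.76 (edgeR adjusted p = 0.00186), and no other gene of the list passed the threshold with edgeR. ATF3, a stress-induced factor, had the highest log2 fold change of the list (2.42, adjusted p = 0.0200 by edgeR and 4.98e-07 by DESeq2, which called it higher). Of the NF-κB subunit genes, RELA had a log2 fold change of -0.061, NFKB1 one of -0.012 and NFKB2 one of 0.067. RELB had 1.29 (edgeR adjusted p = 0.0787) and REL had -1.01 (edgeR adjusted p = 0.0707), in opposite directions. Of the C/EBP genes, CEBPB had 0.62 and CEBPD 0.43, and CEBPA was too low to be tested. None of these NF-κB and C/EBP genes passed the threshold. Of 9 tested regulators of mRNA decay and stability, many of which act on AU-rich elements of cytokine mRNAs, the median was -0.27, 1 passed the threshold with edgeR and 2 were called lower by DESeq2, HNRNPD and KHSRP. HNRNPD (AUF1) fell with a log2 fold change of -1.30 (edgeR adjusted p = 0.00422), and the highest value was 0.52 for ZC3H12A (Regnase-1). Of 7 genes of cytosolic DNA sensing, 5 were tested and 0 passed with edgeR, with 1 at an unadjusted p under 0.05 that DESeq2 also called, and a median of -0.062. The called gene was STING1, listed under the older symbol TMEM173 (log2 fold change 1.14, edgeR adjusted p = 0.0295). The lowest value was that of IFI16 (-0.42), and the sensor cGAS had no count in DMSO and at most 6 in doxorubicin.

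Of 29 further cytokines and chemokines, 8 were tested, with a median log2 fold change of 0.73, and 12 had no count in any library. A count of 0 is not read as absence, since MIF, a widely expressed cytokine named after its values were seen, is among these 12. Of the tested genes, 2 passed the threshold with edgeR, both higher, where 1.29% of all genes tested were called higher. CSF2, which encodes GM-CSF, had 22 and 20 counts with DMSO against 138, 155 and 223 with doxorubicin, and rose from 0.811 ± 0.0395 CPM (SD, n = 2) to 5.975 ± 0.573 CPM (SD, n = 3). Its log2 fold change was 2.87 (SE 0.29, edgeR adjusted p = 0.00233). IL32 had 12 and 9 counts with DMSO against 74, 86 and 127 with doxorubicin, and rose with a log2 fold change of 3.02 (SE 0.37, edgeR adjusted p = 0.00439). The lowest value of the list was that of CLCF1, another gp130 ligand (-0.35). Of 32 growth factors, proteases and inhibitors, 27 were tested and 2 passed the threshold, both higher, against the same 1.29% of all genes. Of these, FGF2, which encodes a fibroblast growth factor, rose with a log2 fold change of 1.23 (edgeR adjusted p = 0.00492). In this list 22 of 27 log2 fold changes were above 0, where 7254 of all 14187 were, with a median of 0.47, from -1.28 for PLAU to 3.63 for AREG, and neither of these extremes passed the threshold. None of the calls of CSF2, IL32, FGF2 and HNRNPD held in any of the 5 fits with 1 library left out, and that of FOSL1 held in 1. Over all genes, 571 calls became 178 to 207 in the fits without 1 doxorubicin library. The log2 fold changes in the 5 fits stayed between 2.81 and 2.95 for CSF2 and between 2.83 and 3.21 for IL32. With all 5 libraries, CSF2, IL32, FGF2 and HNRNPD also passed the threshold with DESeq2 and with limma voom.

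Markers of arrest and senescence reached log2 fold changes further from 0 than any of the 6 tested cytokine genes. Of 10 such genes, all tested, 5 passed the threshold with edgeR, where 4.02% of all genes tested did, and the median log2 fold change was -0.70. CDKN1A, which encodes the CDK inhibitor p21, rose with a log2 fold change of 3.39. LMNB1 (lamin B1), MKI67, HMGB2 and HMGB1 fell, with log2 fold changes of -4.18, -4.65, -2.61 and -1.46. Those of LMNB1 and MKI67 passed the threshold in all 5 fits with 1 library left out, that of CDKN1A in 4, that of HMGB2 in 3 and that of HMGB1 in 0. CDKN2A, which encodes p16, had a log2 fold change of -0.92 (edgeR adjusted p = 0.0968).

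**Figure D5:**
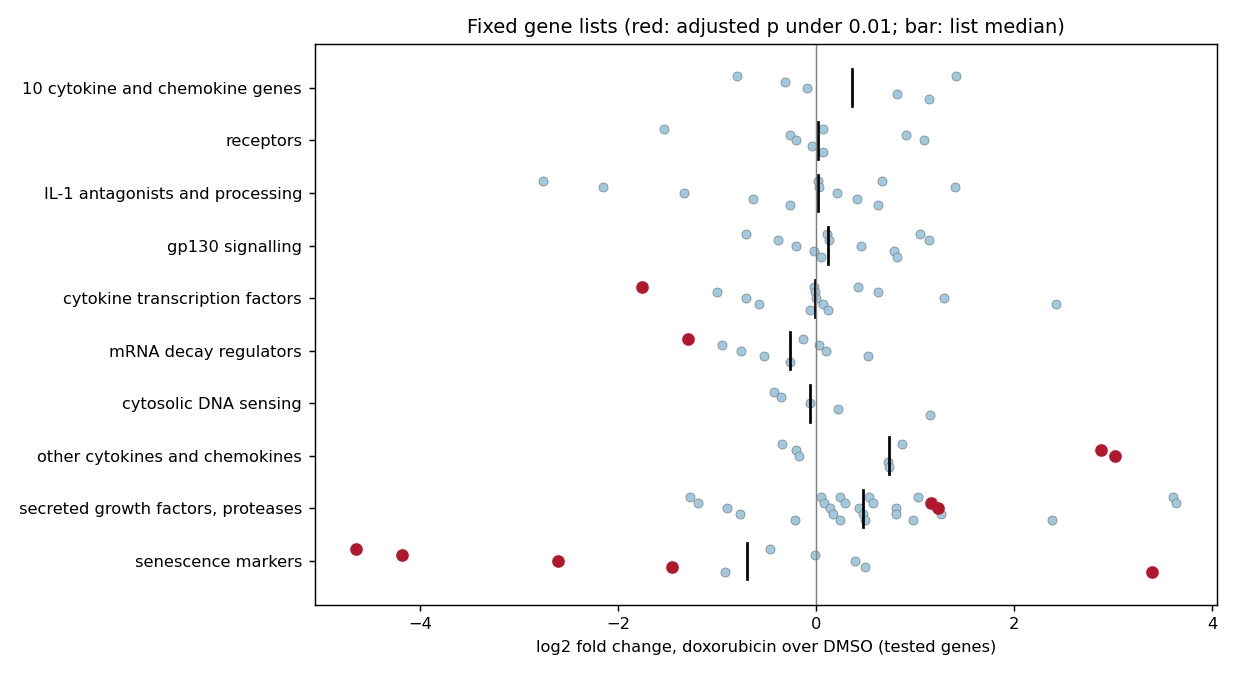
log2 fold change of doxorubicin over DMSO (horizontal axis) of each tested gene in the 10 cytokine and chemokine genes and in 9 lists around them, with genes at an adjusted p under 0.01 in red and a bar at the median of each list. The cytokines hold no red point and lie between -0.80 and 1.41, whereas the senescence markers reach from -4.65 to 3.39.

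For the genes with the highest mean log2 CPM of the group, those with the most similar pattern over the 5 libraries were sought among 11755 genes whose log2 CPM averaged 1 or more. Likeness was the root mean square difference of log2 CPM after each gene was centred on its own mean. LIF was closest to TRMT1 (0.063), a tRNA methyltransferase, and UQCC1 (0.074), an assembly factor of respiratory complex III, against a median of 0.57 over all genes. CCL2 was closest to COL1A1 (0.159), the gene of a type I collagen chain, and ARHGDIB (0.202), against a median of 1.13. IL1B was closest to HLA-H (0.117), a pseudogene so like other HLA class I genes that reads can be split between them, and C6orf226 (0.144), against a median of 0.72. With 5 libraries many genes can come this close, and nothing follows from it about shared control.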

How the data were processed

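Polyadenylated RNA of 5 RPE1 libraries was sequenced by the study. The submitters' processing notes name STAR, featureCounts, DESeq2 and the build hg38; no source used here gives the strand setting of the counting. The authors deposited 1 table of raw counts per gene, which was used as it stands. A second table of the authors holds their own fold changes and p-values and was not used. The cytokine genes and all gene lists were chosen with earlier results of these data known.

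Counts were tested in R 4.3.3 with edgeR 4.0.16 (TMM, filterByExpr with min.count 10 and min.total.count 15, quasi-likelihood F-test) over all genes, with Benjamini-Hochberg adjustment and a threshold of 0.01. DESeq2 1.42.0 and limma 3.58.1 (voom) were alternatives, and DESeq2 is the package that the study used. A prior count of 2 was used for log2 CPM. The scripts were tested on simulated data with 200 changed genes. The 2 DMSO libraries were compared with 3 doxorubicin libraries, and 0.34 μM with 0.2 μM in a fit of 3 conditions. A single gene tested by exact permutation of 3 against 2 libraries could not go below p = 0.1, so no such test was used.

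All 10 cytokine genes are named, as well as genes past the threshold (at most 6 per list), the highest and lowest log2 fold change of each list, and the genes closest in pattern to the 3 most abundant members. IL1RAP, the further receptors, NLRP3, PYCARD, SOCS3, STAT3, SOCS2, the NF-κB and C/EBP genes, KHSRP, cGAS, CDKN2A, the single cell type markers, FOS, ACKR3, IL6-AS1 and MIF were named after their values were seen. A few list genes are counted but not reported here by name. Transcript lengths came from the canonical transcripts of a GENCODE annotation of the older build GRCh37, and gene positions and start regions from RefSeq tables of GRCh38.p14. The genome sequence of GRCh37 was not used. Replicates of a condition differed by more than sampling noise (chi-square per degree of freedom 117 in DMSO and 75.3 at 0.2 μM). Depth was 23773061 to 36725345 counts per library, at which 3 counts correspond to between 0.0827 and 0.125 CPM; intervals and this floor cover counting error only.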

Additional observations from a re-analysis of the deposited data

Results flagged for a closer look

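CXCL8 was lower than in both DMSO libraries at 0.2 μM (7 and 6 counts, against 11 and 7) by CPM and higher than in both at 0.34 μM (16 counts in the deepest library). The log2 difference of 0.34 μM from 0.2 μM was 0.75 (standard error 0.87), with an unadjusted p of 0.415 and an adjusted p of 1 from edgeR's quasi-likelihood test over all genes. The opposite directions at the doses were thus not shown to differ, and 0.34 μM has a single library.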

How the results depend on the processing

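The number of the 10 genes past the threshold was 0 under limma voom, other size factors, no filter on low counts, a threshold of 0.05, each dose alone, thinned counts and in all fits without 1 library (0 to 0). It was 1 with DESeq2 (IL6) and 2 with a replicate block on the DMSO and 0.2 μM libraries (IL6, log2 fold change 1.47, adjusted p = 0.00775; LIF, 0.92, adjusted p = 0.00879, edgeR). With the block CCL2 had -0.76 (edgeR adjusted p = 0.042). The differences of replicate 2 from 1 correlated across genes between DMSO and 0.2 μM (0.528), a hint of a shared replicate effect, but no label says that a number marks a shared batch and there are only 2 pairs, so the fit without the block was kept. Over all genes, 571 calls became 2026 with DESeq2, 1020 with no filter, 1927 at a threshold of 0.05, 185 at 0.2 μM alone, 98 at 0.34 μM alone, 1249 with the replicate block and 49 to 215 with 1 library left out, the lowest without DMSO replicate 2. In the gene lists 11 calls became 22 with DESeq2 and 2 to 5 with 1 library left out.

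CXCL8 turned to a log2 fold change of 0.34 at 0.34 μM alone, 0.24 without DMSO replicate 1, 0.027 without 0.2 μM replicate 1 and 0.062 without 0.2 μM replicate 2, and was not tested with thinned counts, without the 0.34 μM library or with the block. CCL2 turned to 0.95 without DMSO replicate 1. The fits without 1 library ranged from -0.37 to 0.24 for CXCL8 and from -1.58 to 0.95 for CCL2. IL6, LIF and IL1B were higher and IL11 lower in all 14 alternatives each. The median log2 fold change of all genes was 0.013, and 0.15 with no filter and 0.14 with DESeq2. That of the cytokine genes with a value was 0.36, and -0.32 at 0.2 μM alone (7 genes) and -0.035 with DESeq2 (10 genes). The causes of these differences were not tested. CXCL8, IL1A, CXCL1, CXCL2 and CXCL3 rested on few counts, and all genes were compared with only 2 DMSO libraries.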
